A study of Mus musculus with 10 samples.

Results

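Bone morphogenetic protein (BMP) signaling was followed through 10 genes of the lung: the ligands Bmp2, Bmp4, Bmp5 and Bmp6, the inhibitory Smads Smad6 and Smad7, and the target genes Id1, Id2, Id3 and Id4. The members were chosen by name, and each of the 10 matched 1 of the 54532 genes in the deposited table. Whole lungs came from WT C57BL/6J mice collected at P30, 5 with increased pulmonary flow (IPF) after fistula surgery at P7 and 5 that were Sham operated at the same age. The IPF pups had a needle puncture made between the aorta and the vena cava in the abdomen. The sham pups had the same anesthesia and laparotomy without the puncture. Whole lung was sequenced, so fewer cells of a type and less RNA per cell cannot be told apart.

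BMP ligands are secreted dimers that bind type I and type II serine/threonine kinase receptors, which phosphorylate Smad1, Smad5 and Smad9. These Smads enter the nucleus with Smad4 and switch on target genes, among which the Id genes are the classic readout. Id proteins carry a helix-loop-helix but no DNA-binding region, so they capture E proteins and keep them from DNA. Smad6 and Smad7 are induced by the same signal and feed back to block it, and in the lung this pathway is known for its place in alveolar development and in endothelial cells, where loss of the receptor Bmpr2 underlies heritable pulmonary arterial hypertension.

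Bmp4 and Id3, the members that passed the test described further on, and Id2, whose fitted change was closest to that of Id3, are shown by their promoters. Each window runs from 250 bases before to 50 bases after the start site in RefSeq on GRCm38.p6, written 5′ to 3′ on the gene's own strand. Of the 10 genes, 7 had an entry, and Bmp2, Id1 and Smad7 had none. The Bmp4 window is chr14:46390620-46390919 (minus strand), that of Id3 is chr4:136143572-136143871 (plus strand) and that of Id2 is chr12:25096043-25096342 (minus strand). Capitals mark CACGTG, 1 of the forms of the E-box (CANNTG), and GGCGCC, a sequence bound by BMP Smads, with both strands searched.
Bmp4: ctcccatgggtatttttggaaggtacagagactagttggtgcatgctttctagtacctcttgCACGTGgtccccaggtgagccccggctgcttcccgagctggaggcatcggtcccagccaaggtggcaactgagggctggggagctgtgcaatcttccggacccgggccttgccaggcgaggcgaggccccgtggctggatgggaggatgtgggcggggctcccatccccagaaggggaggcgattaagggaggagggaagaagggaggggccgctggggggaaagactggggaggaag
Id3: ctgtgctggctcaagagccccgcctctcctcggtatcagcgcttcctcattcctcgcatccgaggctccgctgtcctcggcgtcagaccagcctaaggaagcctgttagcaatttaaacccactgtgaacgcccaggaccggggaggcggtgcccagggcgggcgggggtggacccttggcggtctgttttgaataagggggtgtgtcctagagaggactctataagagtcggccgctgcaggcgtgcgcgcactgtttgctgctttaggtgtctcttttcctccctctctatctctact
Id2: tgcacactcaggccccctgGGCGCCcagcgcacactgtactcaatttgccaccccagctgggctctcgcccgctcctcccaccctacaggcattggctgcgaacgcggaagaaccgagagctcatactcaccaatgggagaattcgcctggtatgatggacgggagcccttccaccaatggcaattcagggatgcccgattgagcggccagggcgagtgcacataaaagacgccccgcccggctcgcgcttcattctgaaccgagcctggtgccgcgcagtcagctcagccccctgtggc

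CACGTG was found once in the Bmp4 window, with its first base at -188 from the start site, and once in the Bmp6 window, at -127. The other 5 windows did not hold it, and 7.15% of all 32851 windows in the table did. The other forms of the E-box were not searched or marked. GGCGCC was found in the Id2 window, at -231, and in the Id4 window, at -148, where 11.9% of all windows held it. The Smad box palindrome GTCTAGAC was found in the Smad6 window alone of the 7, at -4, and in 0.213% of all windows. These matches describe the letters of the windows only.

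Levels are given in FPKM, read fragments scaled to gene length and to a size of each library, and are therefore per length. The size that the values imply was not the sum of reads on genes. It was 17692157 in IPF replicate 5, which had 18453981 reads on genes. Each member was read 155 to 6480 times per lung. In the sham group the order ran from Smad6 (89.2 ± 2.54 FPKM, SD, n = 5), Id3 (87.3 ± 14.8) and Id1 (83.2 ± 10.1) through Bmp6 (53.7 ± 5.06), Smad7 (33.6 ± 2.27), Bmp4 (24.6 ± 1.19), Id2 (23.8 ± 4.05) and Bmp5 (16.0 ± 1.65) to Bmp2 (3.27 ± 0.136) and Id4 (3.13 ± 0.312). Bmp6 was thus the most abundant of the 4 ligands and Id4 the least abundant of the 4 Id genes. The sham ranges of Smad6 and Id3 overlapped, as did those of Id3 and Id1, Bmp4 and Id2, and Bmp2 and Id4, so the order within these pairs was not larger than the spread between mice. The ranges of Id2 and Bmp5 overlapped too, but Id2 was above Bmp5 within each of the 10 lungs. In the IPF group Id3 had the highest level of the 10 genes in each lung.

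Between 15483046 and 19026843 reads on genes stood behind the values of a lung. Heart muscle markers summed to 113 FPKM in IPF replicate 4 and 92.3 FPKM in sham replicate 3 and to at most 4.91 FPKM in the other 8 lungs. Sham replicate 1 was the library least like the rest, with a mean Spearman correlation across genes of 0.912 with the other libraries, where the others had 0.929 to 0.932. Markers of alveolar type 1, alveolar type 2, endothelial, fibroblast and airway cells were above 0 in the series. The groups differed in more than the operation. Xist, which marks female cells, was at 26.8 to 43.2 FPKM in the IPF lungs and at most 0.0767 FPKM in the sham lungs, and the Y-linked Ddx3y was at 14.3 to 21.4 FPKM in the sham lungs and 0 in each IPF lung, although the methods describe pups of both sexes, balanced between the groups where feasible. Of 14 core clock genes, 13 passed the test, and Nr1d1 lay between 1.03 and 4.28 FPKM in the IPF and between 31.0 and 42.6 FPKM in the sham lungs. The operation, the sex and the clock state cannot be told apart in any comparison that follows. The labels number the samples and give no litter, so p-values measure the spread between these samples.

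The groups were compared with limma on log2(FPKM + 0.1), and a gene was called at a Benjamini-Hochberg adjusted p under 0.05 over the 20448 genes tested. All 10 members had enough signal to be tested. Bmp4 and Id3 were upregulated, no member was downregulated, and 8 did not pass. This is 2 of 10, where 5.85% of all genes tested were called and 3.71% were called with a higher level in IPF. At the study's own limits, which add an absolute log2 fold change above 1, 0 members were called with limma, where 1.14% of all genes were, and voom on recovered reads gave 0 as well. An unadjusted limma p under 0.05 was reached by 5 members: Bmp4, Id3 and Id2, with higher levels in IPF, Bmp6, also higher, and Bmp5, lower. The median log2 fold change of the 10 members was -0.0023, beside 0.0016 for all genes tested.

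**Figure D1:**
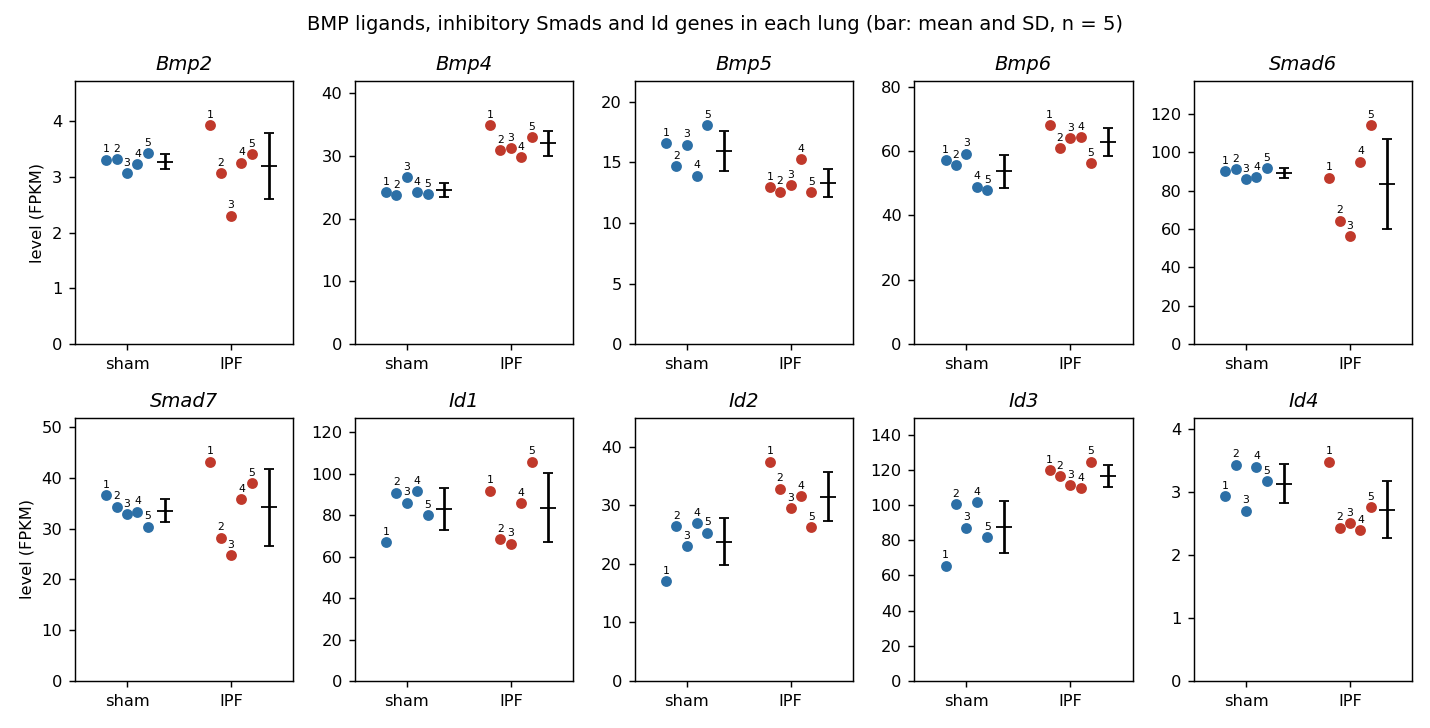
Level of each gene in FPKM (y axis, starting at 0) in the 5 sham lungs (blue) and the 5 IPF lungs (red), each numbered by replicate, with a bar for the mean and SD. The groups do not overlap for Bmp4 and Id3, and the IPF lungs spread far more than the sham lungs for Smad6 and Smad7.

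Bmp4 encodes a ligand of the BMP2/4 subgroup that acts in lung branching and in vessel walls (ENSMUSG00000021835, chromosome 14 of GRCm38, 46383520 to 46390669). In replicate order its level was 35.0, 30.9, 31.2, 29.9 and 33.0 FPKM in the IPF lungs and 24.3, 23.8, 26.7, 24.3 and 23.9 FPKM in the sham lungs. Every IPF lung lay above every sham lung, and sham replicate 3 was the highest of its group. The mean was 32.0 ± 2.01 against 24.6 ± 1.19 FPKM (SD, n = 5 each), 1.30-fold higher, or 0.38 ± 0.06 in log2 units (estimate and standard error; limma adjusted p = 0.00361). The exact permutation test over lungs gave a two-sided p of 0.00794, the smallest that 5 against 5 allow. The call held in each of the 10 fits that left out 1 lung, and without both lungs with heart muscle RNA (limma adjusted p = 0.0124). Gm15222 and Gm15217 overlap Bmp4 on the other strand, and since the use of strand in counting is not stated, reads from them cannot be told apart from Bmp4 reads.

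Bmp2, the closest relative of Bmp4 (ENSMUSG00000027358, chromosome 2, 133552159 to 133562885), had 3.93, 3.07, 2.31, 3.26 and 3.40 FPKM in the IPF lungs against 3.31, 3.33, 3.07, 3.23 and 3.43 FPKM in the sham lungs. IPF replicate 1 lay above and IPF replicate 3 below all sham lungs, and the other 3 were near them. Its fitted change was -0.05 on the log2 scale with a 95% confidence interval from -0.32 to 0.21 (limma adjusted p = 0.861), and it turned to 0.06 without IPF replicate 3. The ligands of the same pair therefore moved unequally. The log2 change of Bmp2 was 0.43 below that of Bmp4, and the ratio of Bmp4 to Bmp2 ran from 8.89 to 13.5 in the IPF and from 6.97 to 8.70 in the sham lungs (exact permutation test on the log ratio, two-sided p = 0.00794, adjusted p = 0.0172 over 13 pairs within a class).

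Bmp5 and Bmp6 belong to the other large subgroup of ligands. Bmp6, known as the endothelial signal that sets hepcidin in the liver (ENSMUSG00000039004, chromosome 13, 38345107 to 38500302), had 68.1, 60.9, 64.0, 64.4 and 56.3 FPKM in the IPF lungs and 57.1, 55.6, 59.2, 48.9 and 47.8 FPKM in the sham lungs. Of the 5 IPF lungs, 4 lay above all sham lungs and IPF replicate 5 lay among them. On the log2 scale the change was 0.23 (95% confidence interval 0.06 to 0.39, limma adjusted p = 0.119; two-sided exact permutation p = 0.0238), so Bmp6 was not called. Its last bases overlap Txndc5, and 4930579J19Rik lies antisense within it.

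Bmp5 (ENSMUSG00000032179, chromosome 9, 75775364 to 75900310) went the other way in its mean, with 12.99, 12.6, 13.1, 15.3 and 12.6 FPKM in the IPF lungs and 16.6, 14.7, 16.5, 13.9 and 18.1 FPKM in the sham lungs. Of the 5 IPF lungs, 4 lay below all sham lungs, and IPF replicate 4 was within the sham range. The log2 fold change was -0.26 (95% confidence interval -0.44 to -0.08, limma adjusted p = 0.0998; two-sided exact permutation p = 0.0238), which did not pass. Gm26903 and Gm47723 overlap it.

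Within single lungs the ratios of Bmp4 and of Bmp6 to Bmp5 separated the groups. Bmp4 did so alone as well, while neither Bmp5 nor Bmp6 did. Bmp2 and Bmp5 differed by 0.21 in log2 change with groups that overlapped (two-sided exact permutation p = 0.198, adjusted p = 0.234). The ratio of Bmp4 to Bmp5 was 1.95 to 2.69 in the IPF and 1.32 to 1.74 in the sham lungs, a difference of 0.64 in log2 change. The ratio of Bmp6 to Bmp5 was 4.21 to 5.24 in the IPF and 2.64 to 3.78 in the sham lungs, and the log2 change of Bmp5 was 0.48 below that of Bmp6. Both ratios had groups without overlap (exact permutation test, two-sided p = 0.00794 each, adjusted p = 0.0172 over the 13 pairs). Bmp4 and Bmp6 differed by 0.15 in log2 change (standard error 0.08), which did not pass (exact permutation test, two-sided p = 0.0714, adjusted p = 0.116).

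**Figure D2:**
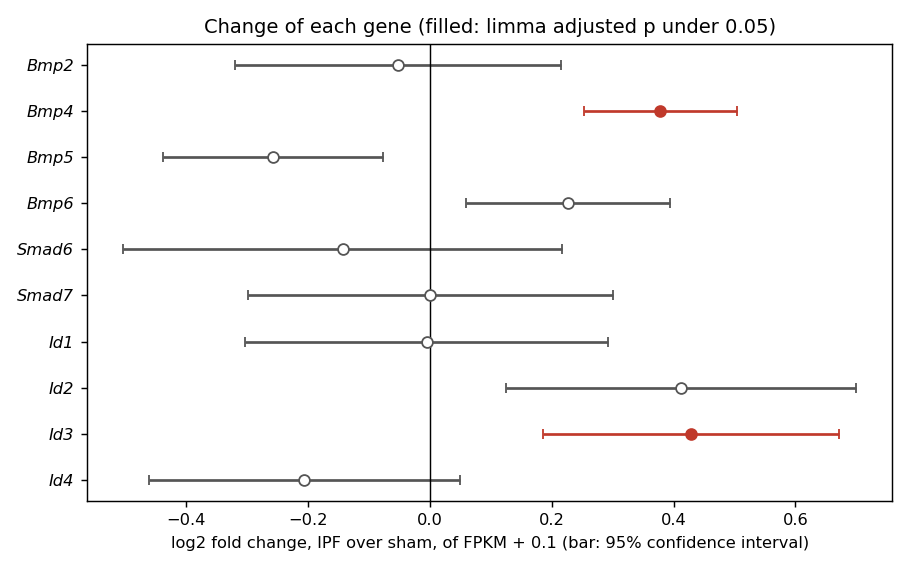
Log2 fold change of each gene, IPF over sham, on the log2(FPKM + 0.1) scale (x axis) with its 95% confidence interval from limma, where filled red points passed an adjusted p of 0.05. Bmp4 and Id3 passed with changes of 0.38 and 0.43, and the intervals of Bmp2, Smad6, Smad7, Id1 and Id4 include 0.

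Id3, an inhibitor of E proteins that is prominent in endothelial cells and lymphocytes (ENSMUSG00000007872, chromosome 4, 136143497 to 136145755), had 119.8, 116, 111, 109.6 and 125 FPKM in the IPF lungs. The sham lungs had 65.5, 100.4, 87.1, 102 and 81.9 FPKM. All IPF lungs lay above all sham lungs, while sham replicate 1 was the lowest. The mean was 116 ± 6.16 against 87.3 ± 14.8 FPKM (SD, n = 5 each), 1.35-fold higher, or 0.43 ± 0.11 in log2 units (estimate and standard error; limma adjusted p = 0.0443; two-sided exact permutation p = 0.00794). This call is close to the limit. It was lost in 7 of the 10 fits without 1 lung (any IPF replicate, sham replicate 3 or sham replicate 5), where limma's adjusted p reached 0.0942, and it was kept without sham replicate 1 (limma adjusted p = 0.0358). Without both lungs with heart muscle RNA the change was as large, at 0.45, and did not pass (limma adjusted p = 0.143), in a fit that called 396 genes in place of 1196.

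Id2 (ENSMUSG00000020644, chromosome 12, 25093799 to 25097140), known for its need in innate lymphoid cells, had 37.5, 32.9, 29.5, 31.5 and 26.2 FPKM in the IPF lungs and 17.1, 26.5, 23.1, 27.0 and 25.4 FPKM in the sham lungs. Of the IPF lungs, 4 lay above all sham lungs, IPF replicate 5 lay just within their range, and sham replicate 1 was the lowest. The fitted change was 0.41 on the log2 scale (95% confidence interval 0.13 to 0.70), as large as that of Id3 but with a wider spread (limma adjusted p = 0.098; two-sided exact permutation p = 0.0238), so Id2 was not called. The changes of Id2 and Id3 differed by 0.02 (standard error 0.11, exact permutation test, two-sided p = 0.937).

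Id1, the member most often used as a reporter of BMP signaling (ENSMUSG00000042745, chromosome 2, 152736251 to 152737410), had 91.9, 68.5, 66.3, 85.8 and 106 FPKM in the IPF lungs and 67.0, 91.0, 86.1, 91.6 and 80.2 FPKM in the sham lungs. IPF replicates 2 and 3 stood with sham replicate 1 at the low end, and IPF replicates 1 and 5 were above all sham lungs. Id1 had a log2 fold change of -0.0049 with a 95% confidence interval from -0.30 to 0.29 (limma adjusted p = 0.992), an interval of 0.811-fold to 1.23-fold. The ratio of Id1 to Id3 was 0.902 to 1.02 in the sham lungs and 0.589 to 0.850 in the IPF lungs, without overlap (difference of 0.43 in log2 change, exact permutation test, two-sided p = 0.00794, adjusted p = 0.0172 over 13 pairs). Id1 and Id2 differed by nearly as much, 0.42, with a larger standard error of 0.18, and did not pass (two-sided exact permutation p = 0.0635, adjusted p = 0.116).

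Id4 (ENSMUSG00000021379, chromosome 13, 48261228 to 48266026), a regulator of stem and progenitor cells in several tissues, had 3.48, 2.43, 2.50, 2.40 and 2.76 FPKM in the IPF lungs and 2.93, 3.43, 2.70, 3.40 and 3.17 FPKM in the sham lungs. IPF replicates 2, 3 and 4 lay below all sham lungs and IPF replicate 1 above them. The log2 fold change was -0.21 (95% confidence interval -0.46 to 0.05, limma adjusted p = 0.368). The ratio of Id3 to Id4 was 34.4 to 47.8 in the IPF and 22.4 to 32.2 in the sham lungs, and that of Id2 to Id4 was 9.51 to 13.5 and 5.83 to 8.55 (exact permutation test, two-sided p = 0.00794 each, adjusted p = 0.0172 over 13 pairs). The start of Id4 overlaps A330033J07Rik and Gm49291 on the other strand. Of the 13 pairs compared within a class, 6 passed, and these are the pairs whose ratios did not overlap. All of them but Bmp5 with Bmp6 and Id2 with Id4 hold Bmp4 or Id3, whose groups did not overlap alone. The pairs share genes, so they are not independent results, and the share among pairs of other genes was not computed.

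**Figure D3:**
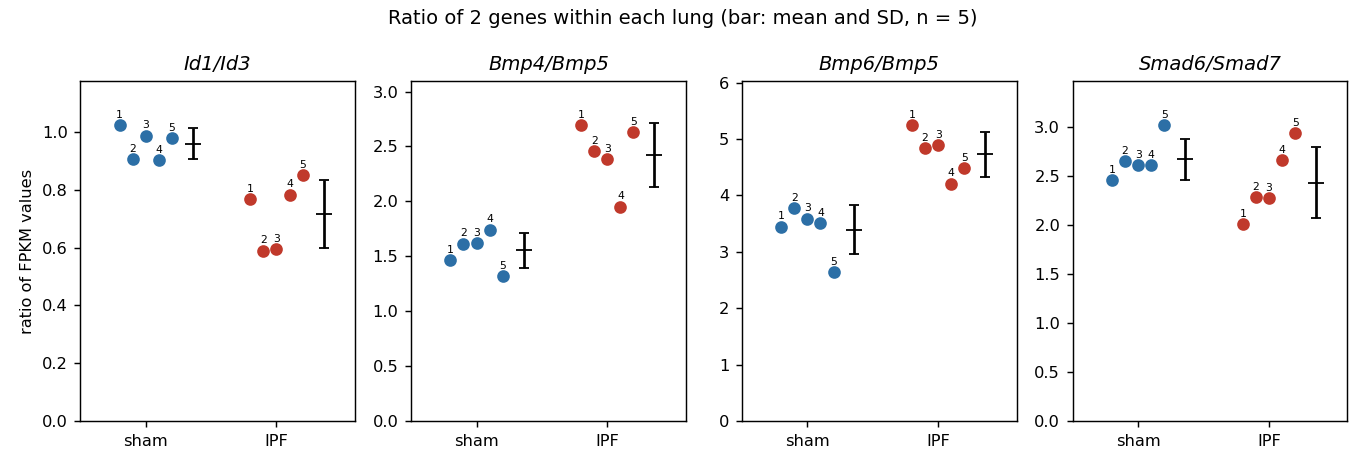
Ratio of the FPKM values of 2 genes within each lung (y axis, starting at 0) for the 5 sham (blue) and 5 IPF lungs (red), numbered by replicate, with the mean and SD. Id1/Id3 was lower in every IPF lung than in any sham lung, Bmp4/Bmp5 and Bmp6/Bmp5 were higher in every IPF lung, and Smad6/Smad7 overlapped.

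Of 10 endothelial markers, 7 had higher and 3 had lower fitted levels in IPF, and 1 was called, beside 5.85% of all genes, where 3 had an unadjusted p under 0.05 and voom called 2. Tek, picked after its values were seen, had 115.5 to 144 FPKM in the IPF and 94.9 to 111 FPKM in the sham lungs and was not called (limma adjusted p = 0.0636). The called marker was Cldn5, a tight junction protein (451 ± 20.7 against 309 ± 42.8 FPKM, IPF against sham, SD, n = 5 each; limma adjusted p = 0.0107), and none was at 0. Their summed level was 1291 to 1464 FPKM in the IPF and 1160 to 1207 FPKM in the sham lungs, and without Cldn5 it was 859 to 1017 and 835 to 922 FPKM, which overlap. Of 8 fibroblast markers, 4 had higher and 4 had lower fitted levels. Pdgfra and Lum were called higher (in 8 and 3 of the 10 fits without 1 lung). The summed level was 999 to 1239 FPKM in the sham lungs, 800.3 FPKM in IPF replicate 5 and 1298 to 1442 FPKM in the other 4 IPF lungs. Mfap4 made up most of that sum and was not called (limma adjusted p = 0.479). Its level was 546 to 792 FPKM in the sham lungs, 432 FPKM in IPF replicate 5 and 828 to 981 FPKM in the other 4 IPF lungs. Of 8 leukocyte markers, all with higher fitted levels, Ptprc and Cd79a were called, and the summed level was 36.1 to 99.1 FPKM in the sham lungs, 308 FPKM in IPF replicate 5 and 85.1 to 106 FPKM in the other 4 IPF lungs. S100a9 and S100a8 made up most of the sum in IPF replicate 5, at 185 and 78.9 FPKM. Of 8 smooth muscle and pericyte markers, Cspg4 was called lower, and the summed level was 213 to 295 FPKM in the IPF and 213 to 248 FPKM in the sham lungs. No marker of alveolar type 1, alveolar type 2, ciliated or secretory airway cells or of heart muscle was called with limma, where 2, 1, 0, 0 and 0 had an unadjusted p under 0.05 and voom called 1, 1, 0, 0 and 0. Among 11 immediate early genes, 6 had higher and 5 had lower fitted levels, with a median log2 change of 0.0050, and Ier2 and Junb were called higher, calls that held in 2 and 3 of the 10 fits without 1 lung. Fos, Fosb and Btg2, picked after their values were seen, had lower fitted levels by -0.52, -0.77 and -0.18 in log2 units and were not called (limma adjusted p = 0.235, 0.156 and 0.256). The part of cell makeup in the values of Bmp4, Id2 and Id3 was not tested.

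Smad6, the inhibitory Smad that acts mainly on BMP signals (ENSMUSG00000036867, chromosome 9, 63953076 to 64022059), had 86.8, 64.4, 56.3, 95.1 and 114 FPKM in the IPF lungs and 90.0, 91.1, 86.0, 87.0 and 91.7 FPKM in the sham lungs. IPF replicates 2 and 3 were below all sham lungs and IPF replicates 4 and 5 above them. The mean was 83.4 ± 23.4 against 89.2 ± 2.54 FPKM (SD, n = 5 each). The log2 fold change was -0.14 with a 95% confidence interval from -0.50 to 0.22 (limma adjusted p = 0.683; two-sided exact permutation p = 0.429), and it was -0.27 without IPF replicate 5 and -0.0137 without IPF replicate 3.

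Smad7, which blocks both BMP and TGF-β receptors (ENSMUSG00000025880, chromosome 18, 75367529 to 75395935), had 43.2, 28.3, 24.8, 35.8 and 39.0 FPKM in the IPF lungs and 36.7, 34.4, 32.9, 33.4 and 30.4 FPKM in the sham lungs. Here too IPF replicates 2 and 3 were below all sham lungs, while IPF replicates 1 and 5 were above them. Smad7 had a log2 fold change of 0.00039 with a 95% confidence interval from -0.30 to 0.30 (limma adjusted p = 0.9998). The changes of Smad6 and Smad7 differed by 0.14 (standard error 0.11; two-sided exact permutation p = 0.222, adjusted p = 0.241), which was within the spread.

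For both inhibitory Smads, picked out for this after their values were seen, the IPF lungs spread more than the sham lungs. The SD of log2 Smad6 was 0.42 in the IPF and 0.04 in the sham group, and that of Smad7 was 0.33 and 0.10. The highest IPF lung had 2.03 times the Smad6 level of the lowest, where this was 1.07 times in the sham group. Over the 13445 genes with a mean of at least 1 FPKM, the median SD of log2 values was 0.151 in the IPF and 0.150 in the sham group, and 51.4% of them had the larger SD in IPF. The difference in spread was not tested. Bmp2 had SDs of 0.27 and 0.06, while Id3 went the other way with 0.08 in the IPF and 0.26 in the sham group. With Bmpr2, the type II receptor, picked after its values were seen, the same IPF lungs stood low, at 45.5 FPKM in replicate 2 and 49.3 FPKM in replicate 3, where the other 3 had 62.1, 66.9 and 75.7 FPKM. The endothelial markers, summed, were lowest in these IPF lungs as well. Cdh5, also picked after its values were seen, was at 264 and 285 FPKM there and at 322 to 332 FPKM in the other 3. The summed endothelial markers were at 1291 and 1367 against 1390.1 to 1464 FPKM. Pecam1, Tek, Kdr and Flt1 were lowest in these IPF lungs too, while Cldn5, Vwf, Esam, Emcn and Tie1 did not follow. Cldn5 (481 FPKM) and Vwf (42.2 FPKM) had their highest IPF level in replicate 3. The part of Bmpr2 and of the endothelial markers in the Smad6 and Smad7 values was not tested.

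**Figure D4:**
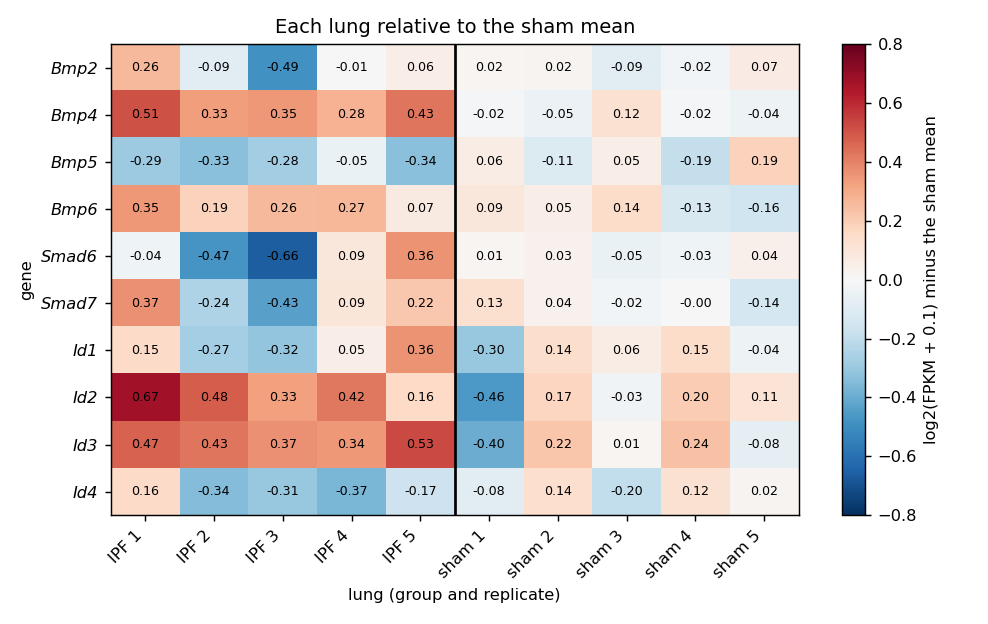
Level of each gene in each lung as log2(FPKM + 0.1) minus the mean of the sham lungs (colour and printed value), with IPF lungs left of the black line. Bmp4, Bmp6, Id2 and Id3 are positive in every IPF lung, Bmp5 is negative in every IPF lung, and Smad6, Smad7 and Id1 are negative in IPF replicates 2 and 3.

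After removal of each group's mean, the members' deviations were compared over the 10 lungs in 45 pairs. None had an adjusted p under 0.05 by exact permutation within the groups, and 3 had an unadjusted p under 0.05 by Pearson's r and 3 by Spearman's rho. By rho, Bmp5 and Id3 ran opposite, with rho = -0.90 (exact permutation p = 0.0025, adjusted p = 0.0578) and r = -0.64 (exact permutation p = 0.0733, adjusted p = 0.579), and r was -0.80 without IPF replicate 4 and sham replicate 5. Bmp2 and Smad6 had rho = 0.93 (exact permutation p = 0.00257, adjusted p = 0.0578) and r = 0.73 (exact permutation p = 0.124, adjusted p = 0.579), and r was 0.77 without IPF replicates 1 and 3. Id1 and Id3 had r = 0.67 (exact permutation p = 0.00375, adjusted p = 0.169) and Spearman's rho = 0.71 (exact permutation p = 0.0165, adjusted p = 0.247), and r was 0.47 without IPF replicate 3 and sham replicate 1. Bmp2 and Smad7 had r = 0.87 (exact permutation p = 0.00986, adjusted p = 0.222) and rho = 0.76 (exact permutation p = 0.0525, adjusted p = 0.378), and r was 0.49 without IPF replicates 1 and 3. Id1 and Smad6 had r = 0.79 (exact permutation p = 0.0310, adjusted p = 0.466) and rho = 0.70 (exact permutation p = 0.0951, adjusted p = 0.378), and r was 0.84 without IPF replicate 3 and sham replicate 1. For Bmp2 and Smad7 r was 0.93 within the IPF and -0.17 within the sham lungs, and for Id1 and Smad6 it was 0.97 and -0.32 (5 lungs each, not tested), so both rest on the IPF lungs.

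Among 13435 other genes with a mean of at least 1 FPKM, those whose deviations over the 10 lungs were most like Id1 were Tmem243 (Pearson's r 0.98), Tmem115 (0.95) and Armc5 (0.94). For Id3 they were Gm9385 (0.96), Cystm1 (0.96) and Lmo2 (0.96), a transcriptional adaptor of blood and endothelial cells. For Smad6 they were Tle4 (0.96), Slc9a3r2 (0.96) and Dgkz (0.96), and for Smad7 Zfp598 (0.97), Zfp697 (0.95) and Las1l (0.95). These are the highest of many correlations over few lungs that share their depth and makeup, and they are given as a description without a test. Lmo2 was called higher in IPF, by 0.61 in log2 units (limma adjusted p = 0.00136), and the other 11 were not called.

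The rest of the pathway was read from 7 lists with 66 genes, of which 55 had a mean of at least 0.1 FPKM and were tested. Of these, 5 were called, 4 higher and 1 lower, which is 9.09% beside the 5.85% of all genes. Without IPF replicate 5, 8 were called, beside 1620 of 20554 over all genes. Without IPF replicate 4 and sham replicate 3, the lungs with heart muscle RNA, 2 were called (Bmp3 and Atoh8), beside 396 of 20494 over all genes. Among the other ligands, 4 of 10 were tested and 1 was called. This was Bmp3, an atypical ligand that can oppose other BMPs (ENSMUSG00000029335, chromosome 5, 98854415 to 98884396), at 23.5, 25.4, 23.3, 24.5 and 18.5 FPKM in the IPF lungs and 11.8, 11.6, 9.95, 11.5 and 11.5 FPKM in the sham lungs. The groups were far apart, and the fitted level was 2.03-fold higher in IPF (log2 fold change 1.02, standard error 0.09, limma adjusted p = 0.000108), a larger fitted change than that of any of the 10 members. Bmp3 was also the most abundant of the other ligands. Gdf2, which encodes the circulating ligand BMP9, was at 0.270 ± 0.178 FPKM in the IPF and 0.154 ± 0.1204 FPKM in the sham group (limma adjusted p = 0.482), and Bmp8a, Bmp8b, Bmp10, Bmp15, Gdf5 and Gdf7 were too low to test.

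Of the 11 receptors and co-receptors, all tested, none was called with limma, 1 had an unadjusted p under 0.05, and 1 was called with voom on recovered reads. The lowest fitted change, picked after the values were seen, was that of the co-receptor Tgfbr3, at 24.6 ± 7.47 FPKM in the IPF and 33.9 ± 4.10 FPKM in the sham group (limma adjusted p = 0.107). IPF replicate 5 had 37.6 FPKM and the other 4 IPF lungs 20.2 to 24.2 FPKM, and without that lung Tgfbr3 was called lower, at -0.66 in log2 units (limma adjusted p = 0.0022). Their median log2 fold change was 0.02. Eng, an endothelial co-receptor with the highest mean of them, was at 217 ± 17.3 FPKM in the IPF and 204 ± 9.06 FPKM in the sham group (SD, n = 5 each; limma adjusted p = 0.568), and Acvrl1, a type I receptor, was close at 213 ± 21.9 and 203 ± 5.16 FPKM and above Eng in 4 of the 10 lungs. Bmpr2 had a log2 fold change of 0.0009 (95% confidence interval -0.30 to 0.30). Of the 4 signal-transducing Smads none was called or had an unadjusted limma p under 0.05, none was called with voom, and their log2 fold changes lay between -0.02 and 0.03. Smad4 was the most abundant of them, at 29.5 ± 2.46 FPKM in the IPF and 29.98 ± 1.54 FPKM in the sham group.

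Of 20 extracellular antagonists and modulators, 16 were tested, 6 had an unadjusted p under 0.05 and 2 were called, 1 in each direction. Fst, an activin and BMP binder picked after its values were seen, was at 0.738 to 1.69 FPKM in IPF replicates 1 to 4, 4.41 FPKM in IPF replicate 5 and 2.36 to 3.97 FPKM in the sham lungs. Its change of -0.95 in log2 units was not called (limma adjusted p = 0.178), and without IPF replicate 5 it was -1.32 and was called (limma adjusted p = 0.00512). Chrdl1, a secreted antagonist that binds BMP ligands (ENSMUSG00000031283, chromosome X, 143285674 to 143394262), had 3.15 to 4.01 FPKM in the IPF and 1.44 to 2.52 FPKM in the sham lungs, without overlap (log2 fold change 0.86, standard error 0.15, limma adjusted p = 0.00717). It lies on the X chromosome, and the sexes differ between the groups. Without the lungs with heart muscle RNA the change of Chrdl1 was 0.81 (limma adjusted p = 0.0618) and that of Fstl3, named next, was -0.45 (limma adjusted p = 0.0687). Fstl3, a follistatin relative that binds activins (ENSMUSG00000020325, chromosome 10, 79777272 to 79782630), was lower in IPF, at 5.01 ± 0.628 against 6.92 ± 0.197 FPKM (SD, n = 5 each), a change of -0.47 on the log2 scale (limma adjusted p = 0.00874). Nbl1 was the most abundant antagonist, at 125 ± 5.45 FPKM in the IPF and 120.1 ± 10.1 FPKM in the sham group (limma adjusted p = 0.705).

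Of the 10 other target genes, 9 were tested, 7 with higher and 2 with lower fitted levels and a median log2 fold change of 0.30. With limma 2 were called, both higher, 5 had an unadjusted p under 0.05, and voom called 3. Unc5b, Msx1 and Hes1, picked after their values were seen, had higher fitted levels and were not called (limma adjusted p = 0.0600, 0.0956 and 0.135). Unc5b was called in 1 of the 10 fits without 1 lung (limma adjusted p = 0.000946). Atoh8, a basic helix-loop-helix factor induced by BMP in endothelial cells (ENSMUSG00000037621, chromosome 6, 72206177 to 72235577), had 9.68, 10.3, 7.93, 9.92 and 9.04 FPKM in the IPF lungs and 6.39, 6.16, 6.86, 6.06 and 6.28 FPKM in the sham lungs. All IPF lungs lay above all sham lungs (log2 fold change 0.55, standard error 0.08, limma adjusted p = 0.00237). Cdkn1a, the cell cycle inhibitor p21, which many other signals also induce, was at 25.6 ± 4.64 against 17.6 ± 1.41 FPKM (SD, n = 5 each), a change of 0.53 on the log2 scale (limma adjusted p = 0.0180), and of 0.58 without the lungs with heart muscle RNA (limma adjusted p = 0.0653). Tmem100, an endothelial target and the most abundant of the list, was at 335 ± 34.2 against 324 ± 35.2 FPKM (limma adjusted p = 0.851).

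Of the 8 intracellular attenuators none was called with limma, 1 had an unadjusted p under 0.05, and 1 was called with voom. Bambi, a pseudoreceptor picked after its values were seen, was at 6.12 ± 0.419 FPKM in the IPF and 4.77 ± 0.755 FPKM in the sham group (limma adjusted p = 0.0686). Ctdsp2, a phosphatase, was the most abundant, at 89.3 FPKM in the IPF and 92.0 FPKM in the sham group (limma adjusted p = 0.785). Of the 3 E proteins that Id proteins capture, none was called with limma or voom and 1, Tcf3, had an unadjusted p under 0.05. Tcf3, the most abundant of them, was at 18.7 ± 0.878 FPKM in the IPF and 17.0 ± 0.384 FPKM in the sham group without overlap (limma adjusted p = 0.136). Over all genes tested, 7.29% had groups without overlap, as did 2 of the 10 members.

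**Figure D5:**
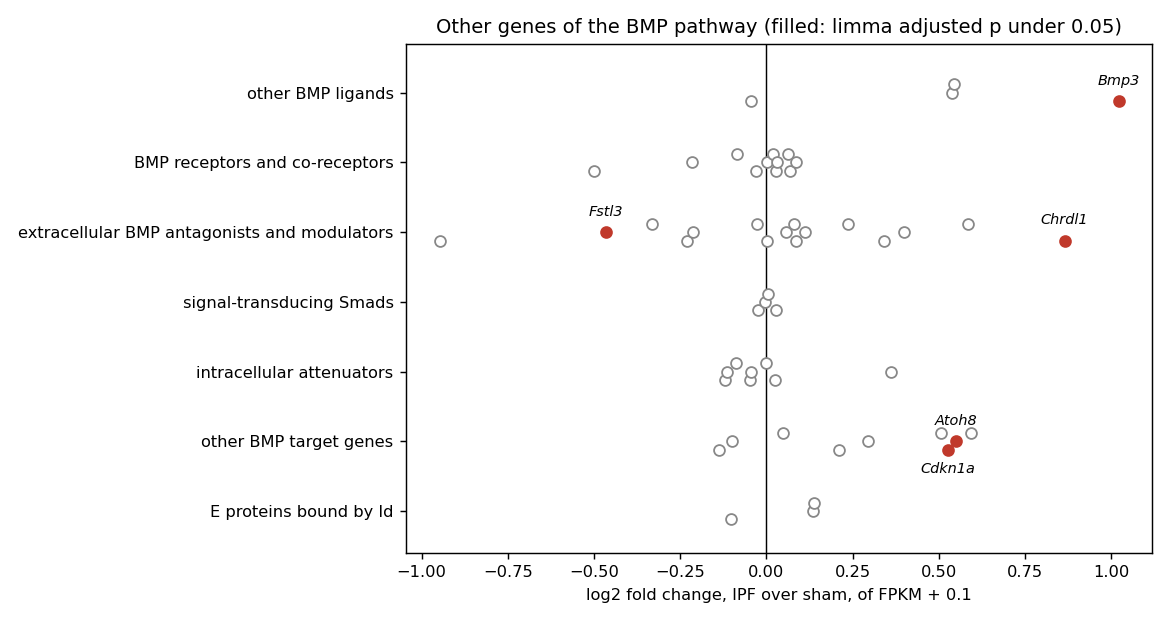
Log2 fold change, IPF over sham, on the log2(FPKM + 0.1) scale (x axis) for the 55 tested genes of 7 pathway lists (rows), with called genes filled and named. Bmp3, Chrdl1, Atoh8 and Cdkn1a lie to the right, Fstl3 lies to the left, and the receptors and signal-transducing Smads hold no called gene.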

How the data were processed

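Whole-lung mRNA of 5 IPF and 5 sham mice was sequenced by the authors, who trimmed reads with Fastp, aligned them with HISAT2 per the methods (the submitters' processing notes name Bowtie) and quantified genes with StringTie. They deposited 1 FPKM value per gene and sample. The methods name GRCm39 and the submitters' processing notes name GRCm38, which the gene positions match: 99.88% of 37771 genes overlap their RefSeq entry on GRCm38.p6. The kit is KAPA mRNA HyperPrep in the methods and NEBNext Ultra in the labels, and the use of strand is not given in the sources used here.

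Members were matched by gene name, and the 10 genes and all lists were chosen with earlier results of these data known. The text names every member, each called pathway gene and the most abundant gene of each pathway list, the 3 genes most alike to Id1, Id3, Smad6 and Smad7, up to 3 called clock or sex-linked genes, and called markers. The test was limma 3.58.1 in R 4.3.3 (trended empirical Bayes, no covariate) for genes whose FPKM averaged 0.1 or more, on log2(FPKM + 0.1), which understates changes of low genes. DESeq2, the test in the paper, was not run on the deposited FPKM values. Exact permutation tests of differences ran over all 252 assignments of the lungs, and those of correlations over all orders within each group, in Python 3.11.15 with scipy 1.17.1. Each FPKM value was a whole multiple of 1 read (tolerance 0.02), which gave the reads behind it. As an alternative, voom was run on these with their sum per lung as the library size. Pairs of lungs of a group differed by more than counting noise (chi-square per degree of freedom 4.78 to 37.3). Replicate numbers were not taken to pair the lungs. The fit was tested on simulated data. Alternatives are listed with their effect in the closing section.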

Additional observations from a re-analysis of the deposited data

Results flagged for a closer look

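Groups of 5 lungs were searched for a lung that stood apart, by the gap to its nearest neighbour over the group's range on the log2 scale, for the 10 members and the 5 called pathway genes. Of 30 such groups, 4 held one, where about 1 in 20 would by chance. Sham replicate 3 was the highest sham lung for Bmp4, at 26.7 FPKM. IPF replicate 4 was the highest IPF lung for Bmp5, at 15.3 FPKM. For Bmp3, IPF replicate 5 was the lowest of its group at 18.5 FPKM, and sham replicate 3 was the lowest of its group at 9.95 FPKM. IPF replicate 4 and sham replicate 3 are the lungs with heart muscle RNA (113 and 92.3 FPKM summed over the markers), and its part in these values was not tested. The groups did not overlap for Bmp4 and Bmp3 with these lungs included.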

How the results depend on the processing

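The alternatives were other pseudocounts (1 and 0.01), other filters (none, or an average of 1 FPKM), quantile normalization or median-of-ratios scaling, voom on recovered reads, array weights, no variance trend, the replicate block and leaving out each lung. Leaving out sham 1, IPF 3 and IPF 5 together, and leaving out IPF 4 and sham 3 together (the lungs with heart muscle RNA), were added after seeing the data. The calls of Bmp4, Bmp3 and Atoh8 held in all of these, and those of Chrdl1, Fstl3 and Cdkn1a in all but the last. Without IPF 4 and sham 3, 1 member (Bmp4) and 2 pathway genes were called, Id3 had 0.45 (limma adjusted p = 0.143) and Smad7 -0.0294, and 396 of all genes were called with 117 past an absolute log2 fold change of 1. Id3 kept its direction in all of them but was not called without a filter (log2 fold change 0.43, limma adjusted p = 0.0774), with median-of-ratios scaling (0.42, 0.0525), with the replicate block (0.43, 0.0833), without a variance trend (0.43, 0.0803) or without the 3 lungs (0.32, 0.0711). Leaving out 1 lung gave Id3 0.33 to 0.49. With no filter, median-of-ratios scaling, the replicate block or no variance trend, 1 member was called in place of 2, and leaving out 1 lung gave 1 to 2. Id2 was called with array weights (0.37, limma adjusted p = 0.0496) and without the 3 lungs (0.41, 0.0199), where 2 members, Bmp4 and Id2, were called. Changes near 0 turned sign. Smad7 had -0.0060 with median-of-ratios scaling, -0.0451 with quantile normalization, -0.0047 with voom, and -0.0914 to 0.11 when 1 lung was left out. Leaving out 1 lung, Smad6 ranged from -0.27 to -0.0137, Id1 ranged from -0.10 to 0.0733 and Bmp2 from -0.13 to 0.0556, and Bmp2 had 0.0598 without the 3 lungs. Of the pathway genes, 8 were called in place of 5 with voom, 8 without the 3 lungs, and 5 to 8 when 1 lung was left out. Over all genes, 775 were called without IPF replicate 4, 1466 with voom, 1620 without IPF replicate 5 and 1749 with array weights in place of 1196, and 74 passed with an absolute log2 fold change above 1 at a pseudocount of 1 in place of 233, since a larger pseudocount shrinks the changes of low genes. The cause of the other shifts was not tested. The correlation of deviations between lungs of the same number was -0.04 to 0.17, so the numbers were not taken as pairs. The sham lung most alike carried the same number for IPF replicates 1, 3 and 5, but not for IPF replicates 2 and 4. The block changed no call but that of Id3 among the members. Bmp2 and Id4, with 155 to 238 reads per lung, have the least depth.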
